A study of Mus musculus with 4 samples.

Results

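The genes that control passage through the G1 phase of the cell cycle were examined in mouse lung after bleomycin: the D-type cyclin genes Ccnd1, Ccnd2 and Ccnd3, the kinase gene Cdk6, the CIP/KIP inhibitor genes Cdkn1b and Cdkn1c, and the INK4 inhibitor genes Cdkn2a, Cdkn2b, Cdkn2c and Cdkn2d. They were chosen by gene symbol, and all 10 were found among the 17691 named genes of the deposited table. The samples were whole lung RNA of C57BL/6 mice of wild type genotype, 6 to 8 weeks old, given either bleomycin, a drug that breaks DNA and provokes lung injury and fibrosis, or the buffer PBS by intranasal route and treated for 10 days. There were 2 PBS libraries and 2 bleomycin libraries, and both groups shared the strain and genotype. The labels do not say whether the libraries came from separate animals, so p-values measure the spread between these libraries, which may be technical.

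D-type cyclins bind CDK4 or CDK6 and switch on these kinases when growth factors are present. The active kinases phosphorylate the retinoblastoma protein, which then releases E2F factors that turn on genes for DNA synthesis. INK4 proteins bind CDK4 and CDK6 and keep them from D-type cyclins, whereas CIP/KIP proteins bind cyclin and kinase together and mainly block CDK2. In the adult lung most cells rest outside the cycle, and these inhibitors take part in holding them there and, after DNA damage, in arrest and senescence.

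Values are FPKM, fragments scaled to transcript length and to the fragments of the library. Levels can thus be set side by side between genes only as far as the length used is right, and that length is not stated. Annotated transcripts run from 1106 to 2471 bases for Cdkn2c and from 922 to 1913 bases for Cdkn1a. Depth, estimated from the step that 1 fragment makes in low values, was 17000000 to 17800000 fragments per library. Transcripts of the Y chromosome differed between the groups: Eif2s3y stood at 26.4 and 28.9 FPKM in the PBS pair and is listed at 0 for each bleomycin library, so sex and treatment cannot be told apart. Changes were tested with limma on log2(FPKM + 1), adjusted over the 12986 genes that averaged 1 FPKM or more, and fold changes on that scale understate those of low genes. Of the 10 genes, 9 were tested and Cdkn2a, at a mean of 0.94 FPKM, was not. By limma at an adjusted p under 0.05, 1 was higher after bleomycin (Ccnd1), 2 were lower (Cdkn1b and Cdkn1c) and 6 did not pass. Over all tested genes 16.3% were called, 8.59% higher and 7.69% lower. The groups did not overlap for 6 of the 9 tested genes, and the same was true of 66.5% of all tested genes. In bulk tissue, fewer cells of a type and less RNA per cell cannot be told apart.

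**Figure D1:**
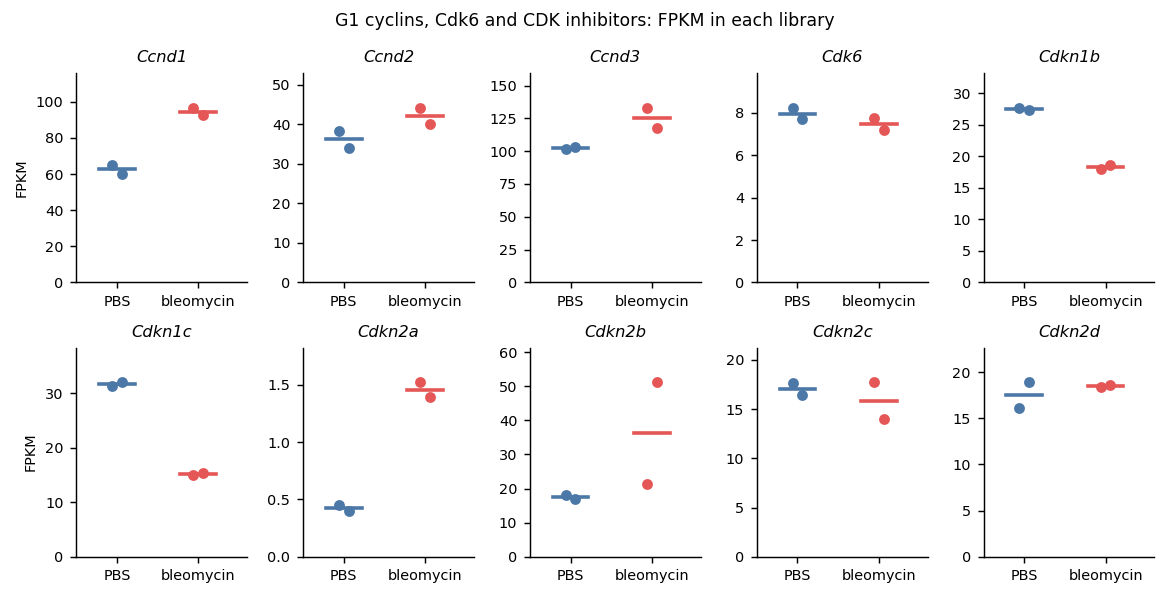
FPKM of each gene (vertical axis, from 0, scaled to each gene) in the 2 PBS and 2 bleomycin libraries (points), with group means as bars. Ccnd1 lies higher and Cdkn1b and Cdkn1c lie lower after bleomycin, and Cdkn2b is spread from 21.3 to 51.1 FPKM in the bleomycin pair.

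All D-type cyclin transcripts stood higher in bleomycin than in PBS lungs, but only Ccnd1 passed the test. The groups did not overlap, in either direction, for 66.5% of all tested genes. Ccnd1, which encodes cyclin D1, the D-type cyclin most often linked to growth factor signals in epithelium and fibroblasts (gene 12443, GRCm38.p6 chromosome 7, 144929931 to 144939831), was at 65.2 and 59.8 FPKM in PBS lungs and at 96.5 and 92.7 FPKM in bleomycin lungs. Both bleomycin libraries lay above both PBS libraries, and the gap between groups was several times the gap within either. Ccnd1 rose 1.51-fold, from 62.5 ± 3.84 to 94.6 ± 2.68 FPKM (mean ± SD over the 2 libraries of a group, here and below), a log2 change of 0.59 ± 0.09 (SE, adjusted p = 0.0194 by limma). Without PBS replicate 1 or PBS replicate 2, limma called 0 of all genes, and the change of Ccnd1 was 0.65 and 0.53 (adjusted p = 0.193 and 0.231). Exons of Oraov1 on the opposite strand share 1100 bases with Ccnd1 in GENCODE, and reads there cannot be told apart unless strand was used in counting, which the labels do not state. Oraov1 itself was at 14 and 13.6 FPKM in PBS lungs and at 12.8 and 13.4 FPKM in bleomycin lungs, with no call (adjusted p = 0.621 by limma).

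Ccnd3, the D-type cyclin gene that is high in lymphoid and differentiated cells (chromosome 17, 47505051 to 47599689), was the most abundant of the family in every library. It was at 102 and 103 FPKM in PBS lungs and at 133 and 118 FPKM in bleomycin lungs. The groups did not overlap, but the bleomycin libraries lay further apart than the PBS libraries, and the log2 change of 0.28 ± 0.10 did not pass (adjusted p = 0.113 by limma). Without bleomycin replicate 2 it was 0.37 and passed (adjusted p = 0.0131), in a fit where the lone bleomycin library is assumed to vary like the PBS pair. Without bleomycin replicate 1 it was 0.20 and did not pass (adjusted p = 0.101), nor did it without PBS replicate 1 or 2 (0.27 and 0.29, adjusted p = 0.47 and 0.443). Bysl, on the opposite strand with 361 exonic bases in common with Ccnd3, went from 5.65 and 5.57 to 8.57 and 8.3 FPKM (adjusted p = 0.0291 by limma). Ccnd2 (chromosome 6, 127125162 to 127152188), which encodes cyclin D2, was at 38.4 and 33.9 FPKM in PBS lungs and at 44 and 40 FPKM in bleomycin lungs. Its groups were separated by less than the spread within the PBS pair, and the log2 change of 0.21 did not pass, with a 95% interval from -0.06 to 0.48 (adjusted p = 0.214 by limma).

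Summed over the family, D-type cyclin FPKM went from 201 ± 6.02 to 262 ± 16.2. Ccnd1 made up 31.7% and 30.3% of that sum with PBS and 35.3% and 37% in bleomycin lungs. Ccnd3 held 49.6% and 52.5% in PBS lungs and 48.6% and 47% in bleomycin lungs, and Ccnd2 held 18.7% and 17.2% against 16.1% and 16%. The order Ccnd3, Ccnd1, Ccnd2 was thus the same in all 4 libraries. The ratio of Ccnd1 to Ccnd2 was 1.70 and 1.76 with PBS and 2.19 and 2.32 with bleomycin. These shares and ratios are given as a description, and no test was run on them.

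**Figure D2:**
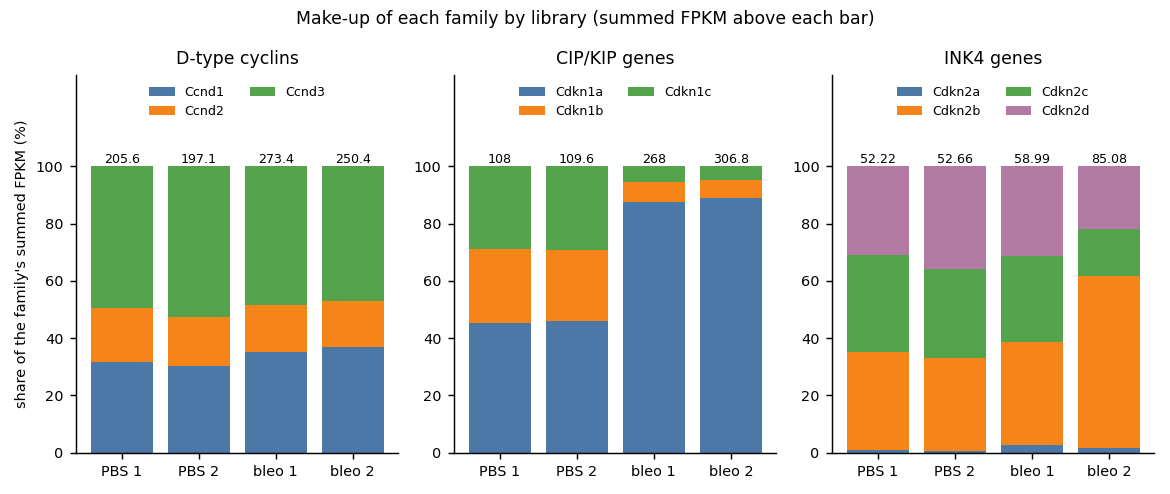
Share of each gene (vertical axis, percent) in the summed FPKM of its family in each library, with the sum in FPKM above each bar; Cdkn1a is included among the CIP/KIP genes. The D-type cyclins keep their order, Cdkn1a fills most of the CIP/KIP sum after bleomycin, and Cdkn2b takes 60.1% of the INK4 sum in bleomycin replicate 2.

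Cdk6, which encodes one of the kinases that D-type cyclins activate (chromosome 5, 3341004 to 3531008), did not pass the test. It was at 8.22 and 7.69 FPKM in PBS lungs and at 7.75 and 7.21 FPKM in bleomycin lungs, and the groups overlapped. The log2 change was -0.08 with a 95% interval from -0.33 to 0.18 (adjusted p = 0.603 by limma). The other D-cyclin kinase gene, Cdk4, was more abundant in every library, at 64.7 and 72.2 FPKM in PBS lungs and at 83.4 and 73.5 FPKM in bleomycin lungs, a change that did not pass either (adjusted p = 0.266 by limma). Cdk4 stood 7.87 and 9.39 times above Cdk6 with PBS and 10.8 and 10.2 times above it with bleomycin.

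The CIP/KIP members moved down. Cdkn1c, which encodes p57, an inhibitor of an imprinted gene cluster that is expressed from the maternal copy (gene 12577, chromosome 7, 143458339 to 143461059), was at 31.4 and 32 FPKM in PBS lungs and at 15.1 and 15.3 FPKM in bleomycin lungs. Its 2 groups lay far apart and each pair was close together. Cdkn1c fell 2.09-fold, a log2 change of -1.01 ± 0.08 (adjusted p = 0.00629 by limma), and 2.9% of all tested genes had a lower value. Without PBS replicate 1 or 2 the fall kept its sign with no call (log2 change -1.03 without replicate 1, adjusted p = 0.144 and 0.156). Its nearest genes in the table on either side, Kcnq1 and Slc22a18, both of the same imprinted cluster, did not pass (log2 changes of -0.29 and 0.23, adjusted p = 0.16 and 0.371 by limma). The antisense gene Gm44732, not analysed here, shares 625 exonic bases with Cdkn1c, and antisense genes likewise share 368 bases with Cdk6 and 368 and 372 bases with Ccnd2.

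Cdkn1b, which encodes p27, the inhibitor that accumulates in resting cells (gene 12576, chromosome 6, 134920401 to 134925525), was at 27.7 and 27.4 FPKM in PBS lungs and at 18 and 18.7 FPKM in bleomycin lungs. Again both pairs were tight and did not overlap. Cdkn1b fell 1.5-fold, from 27.5 ± 0.205 to 18.3 ± 0.46 FPKM, a log2 change of -0.56 ± 0.08 (adjusted p = 0.0173 by limma). Without PBS replicate 1 or 2 it was -0.55 and -0.57 with no call (adjusted p = 0.223 and 0.222).

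The fall of Cdkn1b and Cdkn1c stood beside a rise of the remaining CIP/KIP gene. Cdkn1a, which encodes the p53-induced inhibitor p21, was at 49 and 50.2 FPKM in PBS lungs and at 235 and 273 FPKM in bleomycin lungs, 5.12-fold higher (adjusted p = 0.00416 by limma). Cdkn1a made up 45.3% and 45.9% of the CIP/KIP sum with PBS and 87.7% and 88.9% in bleomycin lungs. Cdkn1b held 25.6% and 25% of that sum with PBS and 6.72% and 6.08% in bleomycin lungs, and Cdkn1c held 29.1% and 29.2% against 5.62% and 4.98%. With PBS the 3 genes were thus of similar order, and with bleomycin Cdkn1a exceeded the other two together 7.11-fold and 8.04-fold.

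The stretch upstream of Cdkn1b is shown because this is the called member whose promoter is in the RefSeq table used here, where 7 of the 10 genes were matched; Ccnd1, Ccnd2 and Cdkn1c were not. It is chr6:134920151-134920400 on the plus strand (GRCm38.p6), 5′ to 3′, ending at the base before the annotated start, and capitals mark the GC box GGGCGG.
Cdkn1b: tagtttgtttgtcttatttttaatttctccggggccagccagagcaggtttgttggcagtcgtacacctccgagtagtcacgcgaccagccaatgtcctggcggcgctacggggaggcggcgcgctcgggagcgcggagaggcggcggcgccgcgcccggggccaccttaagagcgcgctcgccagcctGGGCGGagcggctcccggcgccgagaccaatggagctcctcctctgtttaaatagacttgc
Of its bases 64.4% were G or C, against a median of 52.4% over 32851 promoters of that length, and it held 28 CpG dinucleotides against a median of 6. The GC box was searched on both strands and was found in 32.7% of all promoters. CCAAT occurred at 2 places, 161 to 157 and 35 to 31 bases before the start, and was present in 33.8% of all promoters. GTAAACA, a core that FOXO factors recognise, was not in these letters, and it was present in only 3.17% of all promoters.

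**Figure D3:**
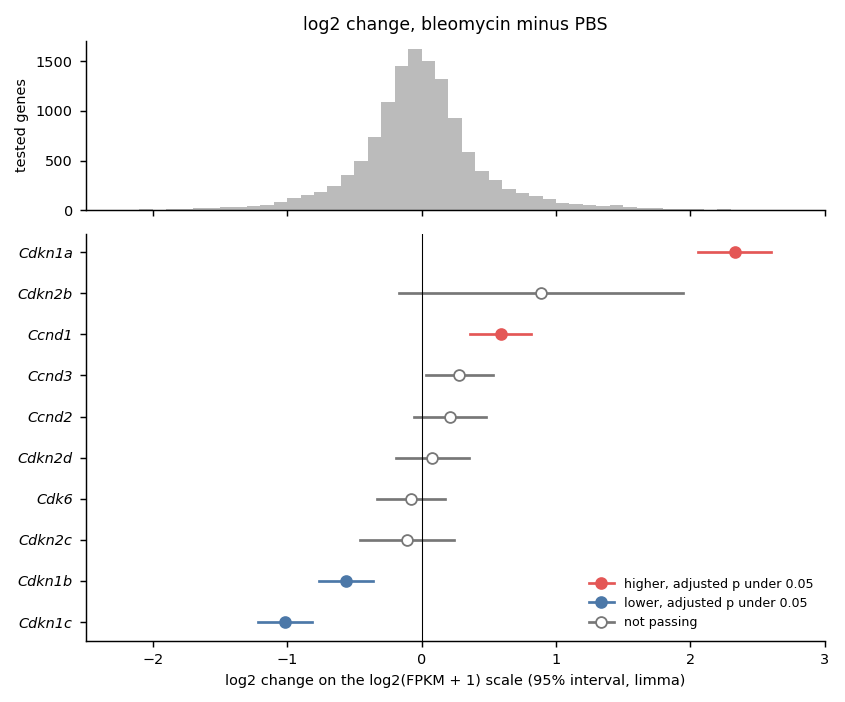
Log2 change of bleomycin minus PBS on the log2(FPKM + 1) scale (horizontal axis) for the 9 tested genes and Cdkn1a, as points with 95% limma intervals, below a histogram of all 12986 tested genes. Filled points passed an adjusted p under 0.05: Cdkn1a and Ccnd1 above 0, Cdkn1b and Cdkn1c below 0; the interval of Cdkn2b runs from -0.17 to 1.94.

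Among the INK4 genes, Cdkn2c and Cdkn2d overlapped between groups, Cdkn2b was high in 1 bleomycin library, and Cdkn2a was low throughout but higher in both bleomycin libraries. Cdkn2a and Cdkn2b lie side by side on chromosome 4, at 89274473 to 89294619 and 89306289 to 89311032, with 11669 bases between them. Cdkn2a encodes both the INK4 inhibitor p16 and, from another first exon and reading frame, ARF, which stabilises p53. In the GENCODE annotation of GRCm38 the p16 transcript begins with an exon at 89281986 to 89282192 and the ARF transcript with one at 89294334 to 89294653. They share the exon at 89276645 to 89276985 and most of the last one. The deposited row gives 1 value for both transcripts, so it does not separate p16 from ARF.

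The stretches before the RefSeq starts of this locus are shown because Cdkn2a has a single value for 2 separate promoters. All are on the minus strand of GRCm38.p6 and are written 5′ to 3′. In GENCODE M21 the first exons begin 34 bases before the RefSeq start for ARF and 7 bases before it for Cdkn2b, and those bases are left out of the letters. Capitals mark TTTNNCGC, an E2F-like core, or GGGCGG, the GC box, on either strand. The letters for the ARF start are chr4:89294654-89294869, those for the p16 start chr4:89282193-89282442 and those for Cdkn2b chr4:89311040-89311282.
Cdkn2a, ARF start: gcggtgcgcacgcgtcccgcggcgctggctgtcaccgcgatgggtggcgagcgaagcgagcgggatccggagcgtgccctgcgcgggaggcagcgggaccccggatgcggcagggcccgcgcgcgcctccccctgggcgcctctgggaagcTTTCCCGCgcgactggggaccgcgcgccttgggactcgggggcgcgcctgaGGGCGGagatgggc
Cdkn2a, p16 start: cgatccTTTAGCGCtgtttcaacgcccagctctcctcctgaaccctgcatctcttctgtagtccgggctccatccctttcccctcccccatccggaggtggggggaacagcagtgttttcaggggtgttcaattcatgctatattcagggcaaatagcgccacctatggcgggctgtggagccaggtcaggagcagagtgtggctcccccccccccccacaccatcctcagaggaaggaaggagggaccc
Cdkn2b: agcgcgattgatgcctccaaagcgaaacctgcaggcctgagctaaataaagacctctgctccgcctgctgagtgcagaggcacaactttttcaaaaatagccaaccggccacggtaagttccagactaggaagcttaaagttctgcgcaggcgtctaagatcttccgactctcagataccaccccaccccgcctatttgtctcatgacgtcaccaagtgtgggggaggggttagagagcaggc
Over the full 250 bases before each RefSeq start, the ARF stretch held 40 CpG dinucleotides and 78.4% G or C, the p16 stretch 7 and 60%, and the Cdkn2b stretch 12 and 53.6%. TTTNNCGC matched once before the ARF start (TTTCCCGC, 99 to 92 bases before it) and once before the p16 start (TTTAGCGC, 244 to 237 bases before it). It matched in 4.28% of all promoters, and among the other matched genes it was found before Cdk6. A match describes the letters and is no evidence of binding.

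Cdkn2a was at 0.45 and 0.4 FPKM in PBS lungs and at 1.52 and 1.39 FPKM in bleomycin lungs. Both bleomycin libraries lay above both PBS libraries. The ratio of means was 3.42. At the estimated depths and with annotated transcript lengths of 852 to 895 bases, these values stand for about 7 and 6 fragments with PBS (95% Poisson intervals 2.8 to 14.4 and 2.2 to 13.1) and 23 and 22 with bleomycin (14.6 to 34.5 and 13.8 to 33.3), intervals that cover counting error only. The interval of bleomycin replicate 2 overlaps that of PBS replicate 1, and the other pairs of intervals between groups do not overlap. Without the filter on low values limma called Cdkn2a higher, with a log2 change of 0.78 (adjusted p = 0.0242). After rescaling to TPM the change was 1.14 (adjusted p = 0.019 by limma). There Cdkn2a passed the filter, a mean over all 4 libraries, only through its bleomycin values. A gene this low with PBS could thus be tested only if it was higher with bleomycin. Without PBS replicate 1 or 2 the change was 0.81 and 0.76, with no call. In these fits, too, Cdkn2a passed the filter only through its bleomycin values. With a bleomycin library left out it stayed under the filter and was not tested, so these changes are no independent check.

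Cdkn2b, which encodes p15, an inhibitor known to be induced by TGF-beta (gene 12579), was at 18 and 17 FPKM in PBS lungs and at 21.3 and 51.1 FPKM in bleomycin lungs. The groups did not overlap, but the bleomycin libraries differed more from each other than bleomycin replicate 1 did from PBS. The log2 change of 0.89 ± 0.40 did not pass (adjusted p = 0.193 by limma). Its size rests on bleomycin replicate 2: without that library the change was 0.28 (adjusted p = 0.0498), and without bleomycin replicate 1 it was 1.498 (adjusted p = 1.15e-05). In these fits the lone bleomycin library is assumed to vary like the PBS pair. Cdkn2b made up 34.4% and 32.2% of summed INK4 FPKM in PBS lungs, 36.2% in bleomycin replicate 1 and 60.1% in bleomycin replicate 2. Mtap, the nearest gene on the far side of Cdkn2a, was at 7.22 and 7.06 FPKM in PBS lungs and at 9.47 and 9.29 FPKM in bleomycin lungs (adjusted p = 0.0614 by limma).

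Cdkn2c, which encodes p18 (chromosome 4, 109660876 to 109666756), was at 17.7 and 16.4 FPKM in PBS lungs and at 17.7 and 14 FPKM in bleomycin lungs. Cdkn2d, which encodes the INK4 protein p19 (chromosome 9, 21288459 to 21291421), was at 16.2 and 18.9 FPKM in PBS lungs and at 18.4 and 18.6 FPKM in bleomycin lungs. Both genes overlapped between groups. Their log2 changes had 95% intervals from -0.46 to 0.24 for Cdkn2c and from -0.19 to 0.35 for Cdkn2d (adjusted p = 0.611 and 0.626 by limma). With PBS, Cdkn2b, Cdkn2c and Cdkn2d were within the spread of each other, at 17.5 ± 0.721, 17 ± 0.87 and 17.5 ± 1.94 FPKM, and Cdkn2a stood far below them.

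In PBS lungs the order of mean levels was Ccnd3, Ccnd1, Ccnd2, Cdkn1c, Cdkn1b, Cdkn2d, Cdkn2b, Cdkn2c, Cdk6 and Cdkn2a, from 103 to 0.425 FPKM. Cdkn2d, Cdkn2b and Cdkn2c overlapped there, and the other neighbours did not. In bleomycin lungs the order was Ccnd3, Ccnd1, Ccnd2, Cdkn2b, Cdkn2d, Cdkn1b, Cdkn2c, Cdkn1c, Cdk6 and Cdkn2a, from 125 to 1.46 FPKM. Cdkn2b lay below Ccnd2 in bleomycin replicate 1 (21.3 against 44 FPKM) and above it in bleomycin replicate 2 (51.1 against 40 FPKM). It was above Cdkn2d in each. Ccnd2 overlapped with Cdkn2b, Cdkn2d with Cdkn1b and Cdkn2c with Cdkn1c. Over the 4 libraries, Ccnd3 exceeded 96.4% of all genes in mean level, and Cdkn2a exceeded 26.2%.

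The genes whose profile over the 4 libraries was most like that of Ccnd1, by the root mean square difference of centred log2 values among 9549 genes averaging 5 FPKM or more, were Nrp2 (0.01), Pfn1 (0.016) and Calr (0.0177). Those most like Cdkn1c were Reps2 (0.0142), Sod1 (0.0208) and Tspan12 (0.0307). This likeness rests on 4 libraries in 2 groups and carries no test.

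Calls for partners of these genes in the G1 machinery lay upward among G1 CDK partners and S phase entry genes. Those among INK4 locus regulators lay mostly downward, and the retinoblastoma and turnover lists held few calls. Over all tested genes 8.59% were called higher and 7.69% lower. Among 10 genes of other G1 cyclins, kinases and their regulators, 4 rose, 0 fell and 6 did not pass, the median log2 change being 0.34. It holds Cdkn1a, given above, and Cdkn3, a phosphatase of CDKs, which went from 1.21 and 1.34 to 5.83 and 8.48 FPKM. Ccne1, the cyclin E1 gene whose product activates CDK2 after cyclin D, rose from 0.81 and 0.8 to 4.05 and 2.69 FPKM (log2 change 1.26 ± 0.19, adjusted p = 0.0208 by limma). Its PBS mean of 0.805 FPKM was under the filter of 1 FPKM, so it was tested only through its bleomycin values. Cdk2 itself rose from 10.4 and 10.1 to 13.5 and 15.2 FPKM (log2 change 0.45 ± 0.10, adjusted p = 0.0445 by limma).

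Of 13 genes of the retinoblastoma and E2F families, 2 rose and 0 fell, with a median of 0.10. E2f3, an activating E2F, rose from 2.36 and 1.83 to 3.93 and 4.42 FPKM, and Tfdp1, the DNA-binding partner of E2Fs, from 14.9 and 13.7 to 21.7 and 20.2 FPKM. Of 20 genes for S phase entry 6 rose and 0 fell, with a median of 0.46 and all 20 above 0. Ccna2, the cyclin A2 gene, went from 1.97 and 2.57 to 13.4 and 11.5 FPKM, and Rrm2, a subunit of ribonucleotide reductase, from 2.82 and 2.66 to 11.1 and 9.04 FPKM. Gins2, of the replicative helicase, and Rrm1, the other reductase subunit, had log2 changes of 1.42 ± 0.20 and 0.93 ± 0.10. Over all 12986 tested genes the median was -0.02 and 6128 lay above 0. These lists were chosen with earlier results of these data known and were given no test of their own.

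Among 15 tested genes of p27 and cyclin D turnover, 2 rose and 1 fell, with a median of 0.07. Cks1b, the cofactor with which SKP2 marks p27 for destruction, rose from 7.38 and 7.5 to 18.5 and 19.6 FPKM (log2 change 1.25 ± 0.09, adjusted p = 0.00616 by limma), and its relative Cks2 from 6.93 and 8.66 to 20.3 and 18 FPKM. Skp2 was at 1.15 and 1.14 FPKM in PBS lungs and at 2.04 and 2.19 FPKM in bleomycin lungs and did not pass (adjusted p = 0.0546 by limma). Fbxo31, an F-box protein reported to target cyclin D1 for degradation after DNA damage, fell from 13.2 and 12.4 to 7.88 and 5.83 FPKM (log2 change -0.82 ± 0.15, adjusted p = 0.0309 by limma).

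Among 18 genes known to regulate the INK4 locus 1 rose and 4 fell, with a median of -0.15. Cbx7, a Polycomb protein that silences Cdkn2a, fell from 23 and 23.9 to 10.3 and 8.79 FPKM (log2 change -1.22 ± 0.11, adjusted p = 0.00765 by limma). Tbx2, a repressor of the locus, fell from 93.9 and 92.7 to 65.9 and 51.9 FPKM, and Ets2, an activator of p16 transcription, from 61.4 and 60.8 to 42.6 and 40.6 FPKM. Ezh2, the methyltransferase of Polycomb complex PRC2, rose from 4.18 and 4.84 to 7.56 and 8.72 FPKM (log2 change 0.73 ± 0.12, adjusted p = 0.0259 by limma). Kdm6b, a demethylase that removes Polycomb marks, fell from 17.8 and 15.6 to 11.7 and 11.4 FPKM. The repressors on this list thus moved in both directions. Over all 76 tested genes of the 5 lists, 15 rose and 5 fell. Without PBS replicate 1 or 2 none was called by limma (before adjustment, p was under 0.05 for 16 and 4 genes without PBS replicate 1, and for 15 and 5 without PBS replicate 2). Without bleomycin replicate 1 the counts were 23 and 13, without bleomycin replicate 2 they were 30 and 9, and with no filter 2 genes were called lower.

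**Figure D4:**
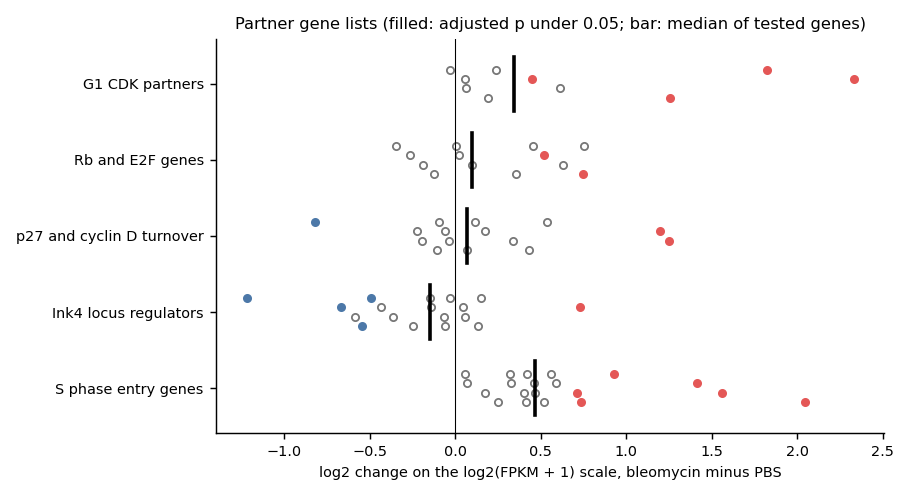
Log2 change of bleomycin minus PBS on the log2(FPKM + 1) scale (horizontal axis) for each tested gene of the 5 partner lists, filled where adjusted p was under 0.05, with the list median as a bar. Calls lie above 0 for S phase entry genes and G1 CDK partners, and 4 of the 5 calls among INK4 locus regulators lie below 0.

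Cell type markers differed between the libraries as well. For the counts below, 8.59% of all tested genes were called higher and 7.69% lower. Markers of recruited macrophages summed to 233 and 249 FPKM in PBS lungs and 1673 and 923 FPKM in bleomycin lungs, with 9 of 10 genes risen and none listed at 0. Endothelial markers summed to 1749 and 1844 FPKM in PBS lungs and 1380 and 1274 FPKM in bleomycin lungs, with 3 of 10 genes fallen and none at 0. Among 9 fibroblast markers 4 rose and 4 fell, with sums of 3299 and 3835 FPKM against 1745 and 1717 FPKM. Hepatocyte markers, with 8 of 8 fallen, summed to 111 and 104 FPKM in PBS lungs and 11.4 and 7.65 FPKM in bleomycin lungs, and erythroid markers, with 5 of 5 fallen, to 5184 and 6714 FPKM against 2249 and 1524 FPKM. Club and secretory cell markers, with 3 of 5 tested genes fallen, summed to 57430 and 43480 FPKM in PBS lungs and 19800 and 20330 FPKM in bleomycin lungs. Neutrophil markers, with 3 of 7 fallen and Ly6g listed at 0 in bleomycin replicate 2, went from sums of 384 and 515 FPKM to 194 and 155 FPKM. Among 7 alveolar macrophage markers 3 fell, with sums of 610 and 725 FPKM against 577 and 1297 FPKM. B and plasma cell markers, of which 0 of 6 tested genes passed, summed to 89.4 FPKM in bleomycin replicate 1 and 15.4 FPKM in bleomycin replicate 2. In the remaining lists, 2 of 8 smooth muscle and pericyte markers and 2 of 9 alveolar type II markers rose and none fell. Of 7 alveolar type I markers 1 rose and 2 fell. None of the tested T and NK cell, ciliated cell or mesothelial markers passed. The part of these differences in the changes of the cyclin and inhibitor genes was not tested.

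**Figure D5:**
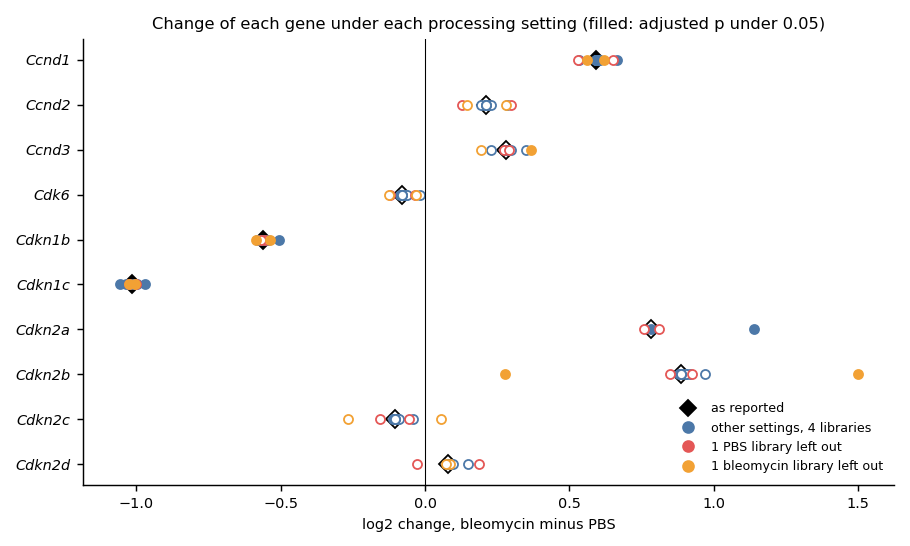
Log2 change of bleomycin minus PBS (horizontal axis) of each gene under every processing setting tried, filled where adjusted p was under 0.05; black diamonds are the values as reported, with the one of Cdkn2a untested because it lay under the filter. Ccnd1, Cdkn1b and Cdkn1c keep their sign in all settings and lose the call where 1 PBS library is left out, and Cdkn2b spans 0.28 to 1.498.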

How the data were processed

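Lung RNA of 2 PBS and 2 bleomycin libraries was used, grouped by sample title. The authors deposited 1 table that holds, per the file headers, an FPKM value for each gene and library. The submitters' processing notes list Bowtie2, HISAT, mm10 and GRCm38. For their roles and versions, and for the quantification tool, the entry is not given in the sources used here. Of 17692 rows, 1 row lacked a name (0.0009% of summed FPKM at most) and was dropped, and 27 names turned into dates were restored through their RefSeq accessions. FPKM divides by each library's own total, so very abundant genes lower the others.

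Log2(FPKM + 1) values were tested with limma 3.58.1 under R 4.3.3 (eBayes with trend, no block, two-sided, Benjamini-Hochberg, threshold 0.05) on 12986 genes averaging 1 FPKM or more, with 2.76 prior and 2 residual degrees of freedom. The script was tested on simulated data. Depth was estimated from genes with 1 transcript of 300 to 1000 bases at 0.03 to 0.3 FPKM, where 75% to 78.1% of values came within 0.15 of whole fragments, at the depth that fitted them best. Positions and promoters come from RefSeq, GRCm38.p6, and lengths and exons from GENCODE M21. The genes named are all members, Cdkn1a, the called list genes with the largest changes (at most 4 a list), and the 3 nearest profiles to Ccnd1 and Cdkn1c. Cdk4, Skp2, Kdm6b, Mtap, Kcnq1, Slc22a18, Oraov1, Bysl and Eif2s3y were added after their values were seen. Members and lists were chosen with earlier results of these data known. No count model was run, since the unit is FPKM. Alternatives tried were other pseudocounts, filters and scalings, eBayes options, the replicate block and fits without 1 library. Tables were handled with pandas 2.3.3 in Python 3.11.15.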

Additional observations from a re-analysis of the deposited data

How the results depend on the processing

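With all 4 libraries, Ccnd1 stayed higher and Cdkn1b and Cdkn1c lower under the 10 alternatives tried, which were pseudocounts of 0.1 and 0.5, no filter, a filter at 5 FPKM, quantile, upper quartile and TPM scaling, eBayes without trend or robust, and the replicate block. The number of these genes called higher was 2 with no filter and 2 after rescaling to TPM, through Cdkn2a. In the TPM fit Cdkn2a passed the filter only through its bleomycin values. The number of list genes called lower was 2 with no filter; the cause was not tested. Leaving out 1 library gave 0 to 2393 genes called higher and 0 to 3180 called lower, 0 to 3 members higher and 0 to 2 lower, and 0 to 30 list genes higher and 0 to 13 lower. The zeros are those without a PBS library; before adjustment, p was under 0.05 for 1137 higher and 993 lower genes when PBS replicate 1 was dropped, and for 1160 and 1048 when PBS replicate 2 was. Cdkn2c (0.06 without bleomycin replicate 2) and Cdkn2d (-0.03 without PBS replicate 1) changed sign without passing in any setting. The labels number replicates 1 and 2 in both groups but give no shared origin, and over 12986 genes the deviations of same-numbered libraries correlated at 0.02. The replicate block gave 842 genes higher and 799 lower, 1 and 2 members and 12 and 4 list genes, and it changed no call among the members. Depth limits Cdkn2a, which rests on few fragments.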
